A study of Vigna subterranea with 10 samples.

Results

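Phenylalanine ammonia lyase (PAL), 4-coumarate:CoA ligase (4CL), the cytochrome P450 CYP98A2 and cinnamoyl-CoA reductase (CCR) lie along the route from phenylalanine to lignin, and 13 of the 36578 soybean probe sets of the table were examined here as readings of them. One probe set each was taken for PAL1 and CCR1 by the study's descriptions, and every probe set whose only array symbol was PAL2.1 (3 probe sets), 4CL2 (2) or CYP98A2 (6) was added. Where a gene had several, they are lettered here from A, the one with the highest mean over the 9 arrays, and the plot of values by array gives each full identifier. These genes were selected on their differences between temperatures on the same arrays, so their own values are given below as a description with standard errors and without p-values. The RNA came from leaflets of bambara groundnut (Vigna subterranea), an African grain legume, and was read on a soybean array (Affymetrix GeneChip), whose short probes follow soybean sequences.

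Fully expanded leaflets of genotype S19-3 were collected under a 12 hour photoperiod at 27 °C (the optimal temperature), then at 23 °C (sub-optimal) and then at 18 °C (very sub-optimal), with 3 arrays at each temperature and 9 in all. The same 3 plants were moved from 27 to 23 to 18 °C, 1 leaflet of each plant being taken at each temperature. Temperature therefore cannot be told apart from sampling order, leaf age, or earlier leaflet removal, and the labels do not tie replicate numbers to plants. Their fields disagree on the days spent at each temperature before sampling, so no duration is used here. Only 1 genotype was sampled.

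PAL removes ammonia from phenylalanine and so commits carbon to phenylpropanoids, and 4CL attaches coenzyme A to the resulting cinnamic acids. From there one branch goes to flavonoids, and another passes through CYP98A2, which hydroxylates the ring of p-coumaroyl esters, to CCR, which makes the aldehydes that become lignin precursors. In leaves these polymers are found mainly in the walls of xylem and fibres, while soluble phenylpropanoids occur throughout the blade.

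Values are log2 expression as deposited, and differences are in log2 units ± SE from limma fitted to all 9 arrays. A mean over all arrays of 10 or more was used to mark probe sets with a clear level, a limit that 7017 probe sets (19.18%) met. Values above 16 and below 0 occurred in the table, so the scale may hold a step besides log2, and differences may not equal true log2 fold changes. Of the 13 probe sets, 7 averaged 10 or more, CYP98A2 C averaged 9.99, and the others were dimmer. Names ending in _s_at, _x_at or _a_at mark probes shared with other transcripts, and every member described below as apart between temperatures carried such an ending, so a value can hold signal of several family members. In a whole leaflet, fewer cells of a type and less RNA per cell cannot be told apart.

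The tissue label was compared with marker lists. Of 33 leaf photosynthesis probe sets, 26 averaged 10 or more. All 19 that the study had annotated did so, but the study kept only probe sets called present on all 9 arrays. Their level is therefore partly built in. Of the 14 known only by an array symbol, 7 averaged 10 or more. The chlorophyll a/b-binding protein gene CAB3 reached 18.31 on 1 probe set, while others of that symbol averaged 15.83, 12.89 and 3.67. Of 39 nodule and seed probe sets, 5 averaged 10 or more. They were PRP2 (12.43), an MtN21/EamA-like transporter (11.89), GY1 (11.81) and KTI-3 (10.76 and 10.33). GY1 and KTI-3 were listed by their array symbols, so some genes of this list did read at a clear level. None of these 39 carried a leghemoglobin symbol, and 1 (LBD23) is a lateral organ boundaries gene caught by the name search. Array medians lay between 7.89 and 8.11, and no slide or scan date was given in the sources used here.

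At both lower temperatures the probe sets of PAL1 and CCR1, PAL2.1 B (1 of 3), 4CL2 A (1 of 2) and CYP98A2 A (1 of 6) stood higher than at 27 °C by 1.34 to 2.79 log2 units, with SEs of 0.26 to 0.37. The other probe sets of these genes are described with each gene. In 8 of the 13 probe sets all 3 arrays at 23 °C lay above all 3 arrays at 27 °C, where 7.3% of all probe sets did so, and in 8 of 13 all 3 arrays at 18 °C did, where 8.96% of all probe sets did so. No member lay wholly below its 27 °C values at either temperature, where 7.52% and 9.94% of all probe sets did. Of the 7 members averaging 10 or more, 6 lay wholly above their 27 °C values at 23 °C and 6 at 18 °C, where 14.6% and 22% of the 7017 probe sets at that level did. The median difference over the 13 was 0.99 at 23 °C and 1.42 at 18 °C, beside -0.0048 and -0.06 over all probe sets. Both comparisons use the same 27 °C arrays, and because the members were selected on them these counts carry no evidence of their own.

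Under the test applied to all probe sets (variance-trend limma, adjusted p under 0.05), 3 members were called higher and 0 lower at 23 °C against 27 °C, where 0.776% of all probe sets were called, 0.435% upwards and 0.342% downwards. At 18 °C against 27 °C 6 were called higher and 0 lower, where 2.13% were called, 1.28% upwards and 0.845% downwards. Between 18 and 23 °C 0 of 13 were called, where 0.943% of probe sets were called, 0.55% upwards and 0.394% downwards. Nothing is read from these member counts, since the rule used the same contrasts.

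**Figure D1:**
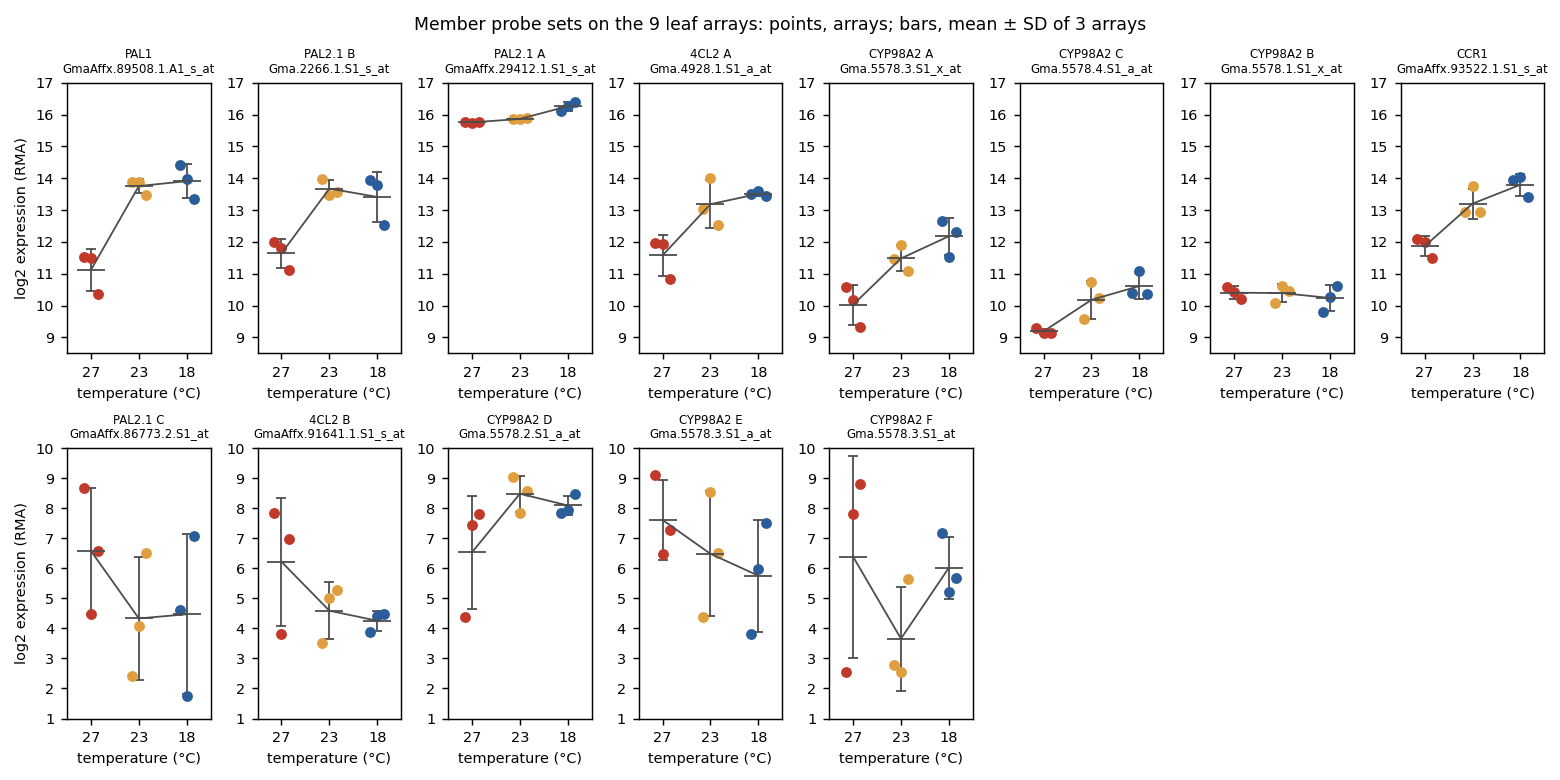
Log2 expression (vertical axis) of the 13 member probe sets at 27, 23 and 18 °C (horizontal axis), with each point 1 array and each bar the mean ± SD of 3 arrays. PAL1 moves from 10.35 to 11.53 at 27 °C up to 13.34 to 14.42 at 18 °C, whereas the 5 dim probe sets in the lower row scatter by several units within a temperature.

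PAL1 showed the largest difference from 27 °C of the members averaging 10 or more, at 23 °C as at 18 °C. Its 27 °C arrays read 11.53, 11.48 and 10.35, its 23 °C arrays 13.89, 13.89 and 13.49, and its 18 °C arrays 14.42, 13.97 and 13.34 (replicates 1 to 3). Every array at 23 or 18 °C exceeded every 27 °C array, while the 23 and 18 °C values overlapped. The means were 11.12, 13.76 and 13.91, so that 23 °C lay 2.64 ± 0.33 and 18 °C 2.79 ± 0.33 above 27 °C, and 18 °C only 0.15 ± 0.33 above 23 °C. Leaving out any 1 array kept the difference from 27 °C between 2.25 and 2.84 at 23 °C and between 2.40 and 3.07 at 18 °C. The difference between 18 and 23 °C changed sign in that exercise (-0.10 to 0.44), so no order of these neighbours is given.

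A second probe set with the same several PAL1 array symbols is not a member. It averaged 8.68 ± 0.76, 9.33 ± 0.14 and 9.19 ± 0.80 (SD, n = 3) at 27, 23 and 18 °C. Its differences from 27 °C of 0.66 ± 0.51 and 0.51 ± 0.51 did not pass the test (limma adjusted p = 0.784 and 0.763).

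PAL2.1, another PAL gene of soybean, was read by 3 probe sets that did not behave alike. PAL2.1 B gave 12.00, 11.80 and 11.12 at 27 °C, 13.98, 13.48 and 13.58 at 23 °C, and 13.94, 13.78 and 12.52 at 18 °C. All lower-temperature arrays were again above all 27 °C arrays, and 18 °C replicate 3 was the lowest of them. Differences from 27 °C were 2.04 ± 0.35 at 23 °C and 1.77 ± 0.35 at 18 °C, and the mean at 18 °C lay -0.26 ± 0.35 from that at 23 °C. The last difference ranged from -0.53 to 0.18 when 1 array was left out.

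PAL2.1 A differed little in size between temperatures but with a narrow spread. Its values lie near 16, the log2 limit of a 16-bit signal, although the table also holds values above 16. Whether differences and spread are compressed at that level was not tested, so its small difference is not read as that of the gene. PAL2.1 A read 15.76, 15.75 and 15.76 at 27 °C, 15.86, 15.85 and 15.89 at 23 °C, and 16.11, 16.29 and 16.39 at 18 °C. The 3 temperatures did not overlap, and it was the only member whose 18 °C arrays all exceeded its 23 °C arrays (7.78% of all probe sets showed this, 18.2% of those averaging 10 or more, and 8.26% of all probe sets lay wholly lower). Its differences were 0.11 ± 0.09 at 23 °C and 0.51 ± 0.09 at 18 °C, and 0.40 ± 0.09 between them. Under quantile normalisation the 23 °C difference became -0.04, so its direction at 23 °C flips with the scaling. The dim PAL2.1 C ranged from 1.74 to 8.68, and its differences of -2.25 ± 1.64 and -2.11 ± 1.64 were no larger than the replicate SD of 2.29.

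4CL2 encodes a ligase that feeds both the flavonoid and the lignin branch. On 4CL2 A it read 11.98, 11.93 and 10.83 at 27 °C, 13.03, 14.00 and 12.52 at 23 °C, and 13.50, 13.60 and 13.44 at 18 °C. The 27 °C arrays lay below all others, and the 18 °C arrays fell inside the wide range of the 23 °C arrays. The difference from 27 °C was 1.61 ± 0.37 at 23 °C and 1.93 ± 0.37 at 18 °C, with 0.33 ± 0.37 between the lower temperatures. The dim 4CL2 B ranged from 3.50 to 7.85 with overlapping temperatures and gave -1.63 ± 1.21 and -1.96 ± 1.21.

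CYP98A2, the ring hydroxylase, was covered by 6 probe sets, and A among them read 10.57, 10.17 and 9.33 at 27 °C, 11.45, 11.91 and 11.09 at 23 °C, and 12.67, 11.54 and 12.32 at 18 °C. The 27 °C arrays stood apart below the rest, whereas 18 °C replicate 2 fell among the 23 °C values. The differences were 1.46 ± 0.37 at 23 °C and 2.15 ± 0.37 at 18 °C, and 0.70 ± 0.37 between 18 and 23 °C. CYP98A2 C had the same order of means, with 9.28, 9.15 and 9.13 at 27 °C, 9.56, 10.74 and 10.24 at 23 °C, and 10.41, 11.08 and 10.35 at 18 °C. Here too the 27 °C arrays lay lowest and the lower temperatures overlapped, and the differences from 27 °C were 0.99 ± 0.34 and 1.42 ± 0.34.

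The remaining CYP98A2 probe sets did not share that pattern as a group. CYP98A2 B read 10.58, 10.43 and 10.19 at 27 °C, 10.09, 10.62 and 10.46 at 23 °C, and 9.81, 10.27 and 10.63 at 18 °C. Its temperatures overlapped fully, and it differed from 27 °C by -0.01 ± 0.28 and -0.17 ± 0.28. On the dim CYP98A2 D all lower-temperature arrays (7.85 to 9.04) exceeded the 27 °C arrays (4.37, 7.43 and 7.80), with differences of 1.95 ± 0.93 and 1.56 ± 0.93. These rested on 27 °C replicate 1, without which they were 0.87 and 0.48. CYP98A2 E (3.80 to 9.09) and F (2.55 to 8.80) had overlapping temperatures and SEs of 1.36 and 1.63.

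CCR1 stands at the entrance to the lignin-specific part of the route. Its probe set, listed under the locus LOC100789070, read 12.10, 11.99 and 11.50 at 27 °C, 12.93, 13.75 and 12.93 at 23 °C, and 13.96, 14.03 and 13.41 at 18 °C. All lower-temperature arrays exceeded all 27 °C arrays, and only the high 23 °C replicate 2 reached into the 18 °C range. The differences were 1.34 ± 0.26 at 23 °C and 1.93 ± 0.26 at 18 °C, and 0.60 ± 0.26 between 18 and 23 °C, the latter staying positive (0.46 to 0.87) when any 1 array was left out.

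**Figure D2:**
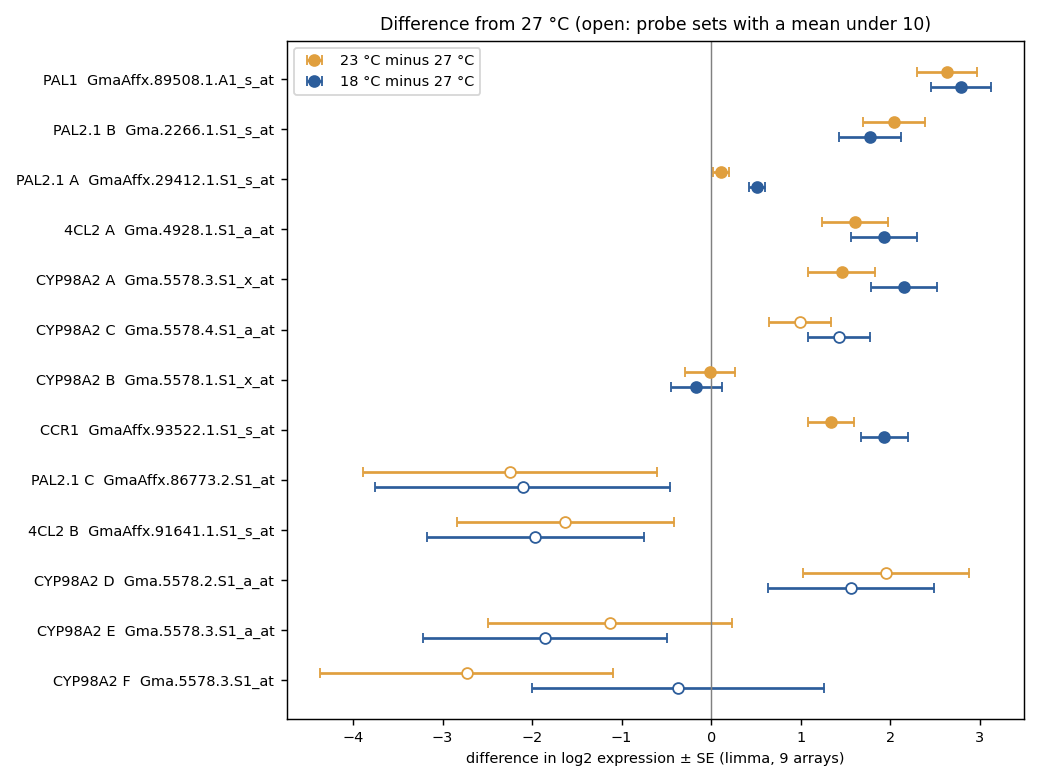
Difference from 27 °C in log2 expression (horizontal axis) ± SE for each member probe set at 23 °C and 18 °C, with open symbols for probe sets whose mean was under 10. The 6 filled probe sets other than CYP98A2 B lie right of 0 at both temperatures, and the 5 dimmest probe sets have the widest bars.

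The share of the 18 °C difference already present at 23 °C is given as a description. It was computed for the members averaging 10 or more other than CYP98A2 B, which did not rise, and for CYP98A2 C (mean 9.99). The dimmer members were left out, among them CYP98A2 D, whose differences were 1.95 at 23 °C and 1.56 at 18 °C. The share was 94.5% for PAL1, 115% for PAL2.1 B and 83.2% for 4CL2 A. It was 69.2% for CCR1, 67.7% for CYP98A2 A, 69.7% for CYP98A2 C and 21.5% for PAL2.1 A, whose 23 °C difference turned to -0.04 under quantile normalisation. Both parts of each ratio share the 27 °C arrays, and whether the ratios differ between genes was not tested.

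At 27 °C the replicates deviated together across members. Of the 7 members averaging 10 or more, 6 had their lowest 27 °C value on replicate 3, with a median deviation of -0.51 from the 27 °C mean, where 39.2% of the 7017 probe sets at that level were lowest on this array. All 7 were highest on 27 °C replicate 1, where 38.7% of the 7017 were. At 23 and 18 °C no replicate was lowest or highest for more than 4 of the 7.

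**Figure D3:**
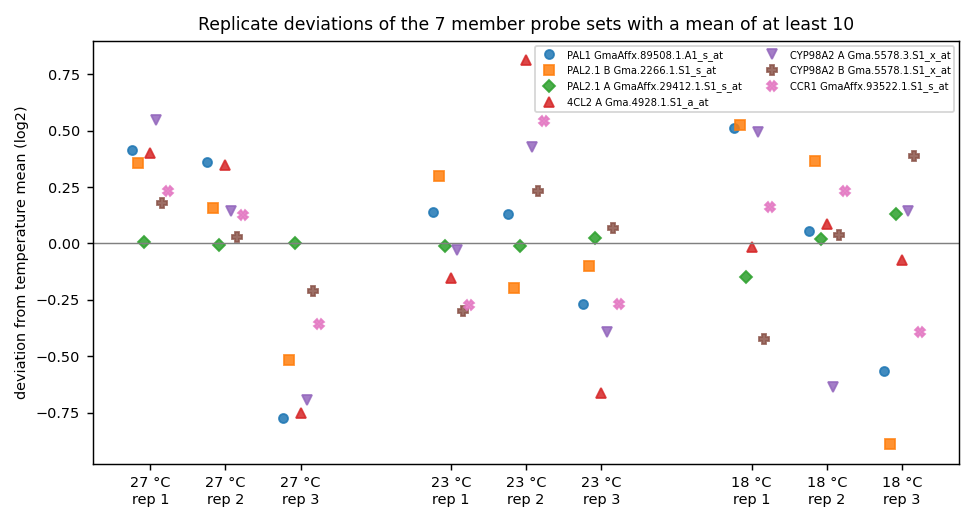
Deviation of each array from the mean of its temperature (vertical axis, log2 units) for the 7 members averaging 10 or more, by temperature and replicate. PAL1, PAL2.1 B, 4CL2 A and CYP98A2 A lie together below 0 on 27 °C replicate 3, and PAL2.1 A lies nearer to 0 there.

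Taking for each gene the probe set with the highest mean, the readings of PAL1, 4CL2 A, CYP98A2 A and CCR1 correlated with one another at Pearson r of 0.91 to 0.95 over the 9 arrays. These points share 3 temperatures, so r mostly follows the temperature means. After removal of the temperature means the same pairs gave 0.49 to 0.85. PAL2.1 A correlated with the other 4 at 0.58 to 0.72, and at -0.63 to -0.11 after the means were removed.

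A search for like patterns used 845 named probe sets averaging 10 or more. Their names were array symbols or the study's descriptions, and the study described probe sets that it picked as changed on these same arrays. All those named below except the CEL12 probe set beside 4CL2 carried such a description, so high correlations with the members are partly built into the pool. The probe sets most like each of these readings over the 9 arrays were as follows. For PAL1 they were galacturonosyltransferase 4 (r = 0.99), a pectin-synthesising enzyme in Arabidopsis, ENHANCED DISEASE RESISTANCE 2 (0.98) and CEL12 (0.98), described by the study as glycosyl hydrolase 9A1. CCR1 was followed most closely by a methyltransferase matched to caffeoyl-CoA O-methyltransferase (r = 0.99), by tubulin alpha-2 chain (0.98) and by genomes uncoupled 1 (0.98). For the methyltransferase and for tubulin alpha-2 chain the correlation with CCR1 remained 0.98 after the temperature means were removed, so these readings also moved together between replicates. Over all the probe sets named in this paragraph, the correlation left after that removal was 0.69 to 0.98, so it is not particular to the methyltransferase. All were picked for the highest r over the 9 arrays, which also holds the replicate deviations. The picking therefore favours a high correlation after the removal, and no value for unpicked probe sets is given beside it. 4CL2 was most like another CEL12 probe set (0.97), the auxin-response gene indole-3-acetic acid inducible 11 (0.96) and a phospholipid/glycerol acyltransferase (0.95). CYP98A2 was most like a kinase interacting (KIP1-like) protein (0.96), BAX inhibitor 1 (0.96) and the proton pump H(+)-ATPase 2 (0.95). PAL2.1 A was most like WRKY23 (0.98), which the study describes as WRKY DNA-binding protein 9, a biotin/lipoyl attachment domain protein (0.97) and an aluminium induced protein with YGL and LRDR motifs (0.97).

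The other steps of the pathway were read by 28 probe sets that are not members. At 18 °C against 27 °C 6 of the 28 were called higher and 2 lower, with a median difference of -0.08, beside 1.28% called higher, 0.845% called lower and a median of -0.06 over all probe sets. All 8 calls fell among the 10 probe sets that the study had annotated (median 1.69), and 0 of the 18 known only by an array symbol were called (median -0.35). The study picked its annotated probe sets as changed on these same arrays, so they are not independent evidence of direction. At 23 °C 1 was called higher and 1 lower, and between 18 and 23 °C 1 was called higher. Of these 28, 9 averaged 10 or more. With a constant variance prior in limma none of the 8 calls at 18 °C held (adjusted p = 0.0945 to 0.372), and none held with the methods' t-test. It was run here on all 36578 probe sets at adjusted p under 0.05, without the presence filter, fold limit and stricter threshold of the study, so it is not the study's full procedure.

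Upstream of PAL, a class-II DAHP synthase, the first enzyme of the shikimate pathway that leads to phenylalanine, rose from 11.71 to 12.71 at 18 °C (0.99 ± 0.17, limma adjusted p = 0.0123). One probe set of arogenate dehydratase 6, which makes phenylalanine from arogenate, rose by 1.68 ± 0.38 (limma adjusted p = 0.0456). That call was lost with only the 6 arrays compared (limma adjusted p = 0.058) and without any 1 array other than 23 °C replicate 2 (up to 0.164), and the other probe set of that name differed by -0.50 ± 0.37 (limma adjusted p = 0.655). Isochorismate synthase 2, which draws chorismate away towards isochorismate and was caught in the list by its name, fell by 0.85 ± 0.15 (limma adjusted p = 0.0143). The DAHP synthase call ended without 27 °C replicate 2 or 3 or 18 °C replicate 1 (limma adjusted p up to 0.0602), and that of isochorismate synthase 2 without any 27 °C array or 18 °C replicate 1 or 2 (up to 0.0683).

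Between PAL and 4CL lies cinnamate 4-hydroxylase (C4H). Its probe set with the higher mean averaged 10.19, 10.51 and 10.06 at 27, 23 and 18 °C and differed by -0.13 ± 0.29 at 18 °C (limma adjusted p = 0.917). Of the other 4CL genes, 4CL3 had the highest mean and differed by -0.03 ± 0.17 (limma adjusted p = 0.974). One 4CL1 probe set, named here after its values were seen, gave 1.36 ± 0.43 at 23 °C and 0.98 ± 0.43 at 18 °C without passing the test (limma adjusted p = 0.274 and 0.364). None of the 7 non-member entry enzyme probe sets was called in any comparison by limma.

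In the lignin branch the methylating steps moved in opposite directions. A methyltransferase that the study's table matches to Arabidopsis caffeoyl-CoA O-methyltransferase, which adds the methyl group of guaiacyl lignin units, read 13.88, 13.74 and 13.57 at 27 °C, 14.24, 15.22 and 14.33 at 23 °C, and 15.67, 15.54 and 15.07 at 18 °C. It rose at 18 °C by 1.70 ± 0.24 (limma adjusted p = 0.0047). A second probe set with that match, the one closest to CCR1 in pattern, rose by 1.91 ± 0.33 (limma adjusted p = 0.0136), a call that ended without 27 °C replicate 3 or 18 °C replicate 1 or 2 (up to 0.0709). O-methyltransferase 1, the caffeic acid O-methyltransferase of Arabidopsis, read 17.33, 17.25 and 17.04 at 27 °C, 16.18, 15.96 and 16.11 at 23 °C, and 16.10, 15.79 and 16.26 at 18 °C. It fell by 1.12 ± 0.13 at 23 °C and by 1.15 ± 0.13 at 18 °C (limma adjusted p = 0.00325 and 0.00101), with no overlap with 27 °C. The probe sets whose array symbol is CCR had means of 4.07 and 2.75 and were not called.

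Peroxidases oxidise lignin precursors so that they polymerise, although the family has many other roles. One peroxidase read 9.53, 10.01 and 10.42 at 27 °C, 11.53, 11.85 and 11.31 at 23 °C, and 12.22, 12.47 and 11.76 at 18 °C. It rose by 1.58 ± 0.28 at 23 °C and by 2.16 ± 0.28 at 18 °C (limma adjusted p = 0.0268 and 0.0026). Another averaged 9.18, 10.01 and 12.61 and rose by 3.43 ± 0.46 at 18 °C against 27 °C (limma adjusted p = 0.00324). It also rose by 2.60 ± 0.46 at 18 °C against 23 °C (limma adjusted p = 0.0245). The last call ended without 23 °C replicate 1 or 3 or any 18 °C array (limma adjusted p up to 0.116), and the 23 °C call of the first peroxidase without 27 °C replicate 1 or 2, any 23 °C array or 18 °C replicate 1 (up to 0.107). A dim peroxidase, named here after its values were seen, averaged 5.71, 6.18 and 10.51 and gave 4.80 ± 1.22 at 18 °C (limma adjusted p = 0.0776). None of the 9 peroxidase and dirigent-type probe sets known by array symbol was called.

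**Figure D4:**
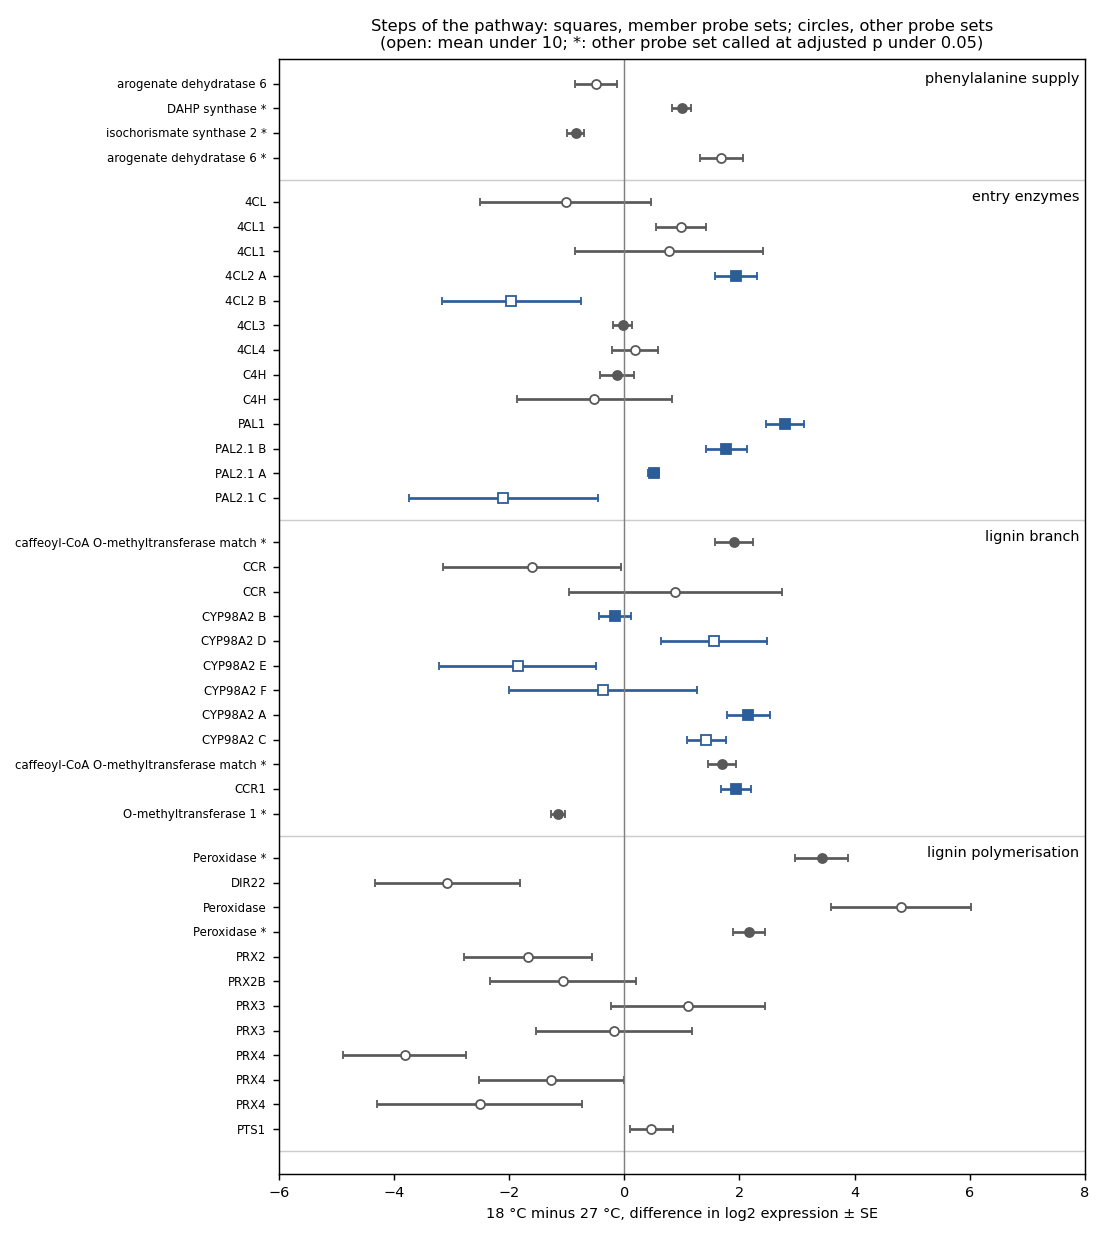
Difference between 18 and 27 °C (horizontal axis, log2 units ± SE) for every probe set of the 4 pathway lists, with squares for the 13 members and circles for the other 28. Filled symbols lie mostly right of 0 from PAL to the peroxidases, apart from isochorismate synthase 2 (-0.85) and O-methyltransferase 1 (-1.15) to the left and C4H, 4CL3 and 1 CYP98A2 probe set near 0. Every filled symbol right of 0 is a member or was annotated by the study, and both were selected on changes on these same arrays. The side on which they lie is therefore no evidence of direction for the pathway.

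For the flavonoid branch, which leaves the route after 4CL, 68 probe sets were listed by array symbol. They include cytochrome P450 genes such as CYP93E1 and CYP82A3, whose place in that branch was not checked. None was called by limma at 23 against 27 °C, 18 against 27 °C or 18 against 23 °C, where 0.776%, 2.13% and 0.943% of all probe sets were. Their medians were -0.01 at 23 °C and -0.16 at 18 °C against 27 °C. At 23 °C 7 lay wholly above and 2 wholly below their 27 °C values, where 7.3% and 7.52% of all probe sets did. At 18 °C 12 lay wholly above and 8 wholly below, where 8.96% and 9.94% of all probe sets did. Of these 68, only 6 averaged 10 or more. The one with the highest mean, a chalcone isomerase (CHI1B1), lay 0.94 ± 0.24 higher at 18 °C with no overlap (limma adjusted p = 0.0868), while a second CHI1B1 probe set gave -0.34 ± 0.23 (limma adjusted p = 0.606). The dimmer CHI1B1 probe sets averaged 6.99 and 8.08 at 27 °C and 3.71 and 5.53 at 18 °C. Of these, the first lay wholly below its 27 °C values at 18 °C. Whether the members and the flavonoid probe sets differ was not tested.

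Lignin is laid down with cellulose in xylem and fibre walls, and probe sets of such tissues were examined beside the members. Of 11 listed, 6 carried the symbol CEL12, an endoglucanase of cellulose synthesis that is not restricted to them. Of these 11 xylem and secondary wall probe sets, 10 had a positive difference at 18 °C (median 1.05). At 18 °C against 27 °C 4 were called higher and 1 lower, where 1.28% and 0.845% of all probe sets were. The study had annotated 6 of the 11, which it picked as changed on these same arrays. Those 6 hold 2 of the higher calls and the lower one, and they are not independent evidence of direction. The mean level of the 11 on single arrays was 10.67 to 11.25 at 27 °C, 10.86 to 11.64 at 23 °C and 11.64 to 12.29 at 18 °C. The called ones were 3 probe sets of CEL12 (1.12 ± 0.17, 1.23 ± 0.17 and 1.54 ± 0.32), a cellulose synthase family protein (2.98 ± 0.65) and, downwards, a COBRA-like protein (-1.66 ± 0.36). Another COBRA-like protein rose between 23 and 18 °C by 1.51 ± 0.29 (limma adjusted p = 0.04), a call that ended without any 1 array. At 23 °C 2 of the 11, both CEL12, were called higher, where 0.435% of all probe sets were. Leaving out 1 of 4 or more of the arrays ended each call of this list other than those of 2 CEL12 probe sets at 18 °C (limma adjusted p up to 0.162). With the constant prior none of the calls of this list held (limma adjusted p = 0.2 to 0.477, and 0.265 and 0.232 for those 2 CEL12 probe sets), nor did any with the methods' t-test. The fall of the COBRA-like protein was also lost with only the 6 arrays compared (limma adjusted p = 0.0543) and with the replicate block (limma adjusted p = 0.084). The part of these tissues in the values of PAL, 4CL2, CYP98A2 and CCR1 was not tested.

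Leaf photosynthesis probe sets went the other way. Of the 33, 20 were called lower and 0 higher at 18 °C against 27 °C (median -0.93), where 0.845% and 1.28% of all probe sets were. The study had annotated 19 of the 33, which it picked as changed on these same arrays, and all 19 were called lower. They are not independent evidence of direction. Of the 14 known only by an array symbol, 1 was called lower (median -0.71). At 23 °C 3 of the 33 were called lower, all annotated by the study, where 0.342% of all probe sets were. The mean level of the 33 on single arrays was 14.12 to 14.58 at 27 °C and 13.19 to 13.84 at 18 °C. Of the 39 nodule and seed probe sets, PRP2 (3.81 ± 0.49) and an MtN21/EamA-like transporter (4.58 ± 0.26) were called higher at 18 °C and SWEET17 (-2.31 ± 0.35) lower, all 3 being caught by words in their descriptions rather than known as markers of those organs. The mean level of that list stayed between 6.63 and 7.52 on all 9 arrays. The part of a changed leaf composition in the members' differences was not tested.

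**Figure D5:**
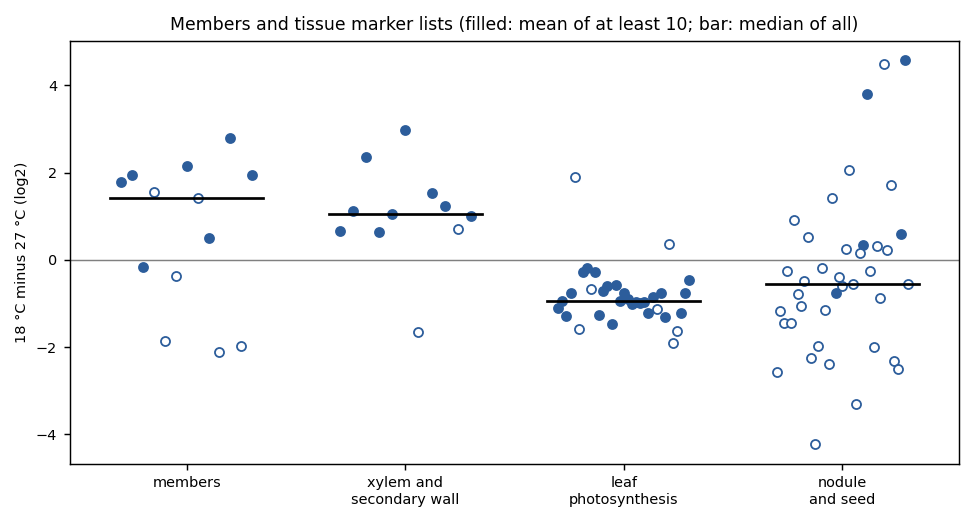
Difference between 18 and 27 °C (vertical axis, log2 units) for the 13 members and 3 tissue marker lists, with 1 point per probe set, filled where its mean was at least 10, and a bar at each list's median. The medians are 1.42 for the members, 1.05 for xylem and secondary wall, -0.93 for leaf photosynthesis and -0.55 for nodule and seed. Each marker list holds probe sets that the study picked as changed on these same arrays.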

How the data were processed

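Leaf RNA was measured on 9 arrays. The deposited log2 values were made by the authors with RMA (named in the submitters' processing notes, version not given in the sources used here) after dropping probe pairs that bound the species' own genomic DNA poorly. The study preferred 1 genomic DNA signal cutoff among several, but whether the deposited values used it is not given in the sources used here. In them, 1312 values exceeded 16 and 1434 lay below 0. The column of the genomic DNA array held 0 values and was not used. Groups came from the labels. Differences were fitted with limma 3.58.1 in R 4.3.3 (lmFit, then eBayes with trend and robust moderation, called variance-trend limma) on all 9 arrays with 6 residual degrees of freedom, two-sided, with Benjamini-Hochberg adjustment over 36578 probe sets, calls at adjusted p under 0.05 and no filter. The code was tested on simulated data. P-values reflect variation among single leaflets of 3 plants only. The number of arrays limits the precision.

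Members and gene lists were chosen with earlier results of these data known. Lists were built from array symbols (8369 probe sets with 1 symbol, 352 with several, 27857 with none) and the study's descriptions (667). Probe sets with several symbols were named only from those descriptions. Named were all members, list probe sets called in any comparison, the one with the highest mean where a step had no call, and the 3 most alike in pattern, while called photosynthesis probe sets are given as counts. Alternatives were array centring, quantile normalisation, a constant variance prior, a minimum mean of 10, the 6 arrays compared, a replicate block, the methods' t-test (without the study's presence filter and fold limit) and leaving out each array.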

Additional observations from a re-analysis of the deposited data

How the results depend on the processing

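Of 429 member differences recomputed under 11 alternatives or array omissions, 425 stayed within 1 replicate SD of the reported value. None of the called ones changed sign. Leaving out 1 array cannot move a difference by more than this pooled SD, so for the omissions the limit tests nothing. CYP98A2 D at 23 against 27 °C fell from 1.95 to 0.87 without 27 °C replicate 1 and still counted as within it. Only array centring and quantile normalisation could have passed the limit. The 4 that moved were all of PAL2.1 A: -0.04 at 23 against 27 °C under quantile normalisation, 0.63 at 18 against 27 °C with centred arrays, and 0.51 and 0.55 at 18 against 23 °C with centred arrays and quantile normalisation. Centring moved the median of all probe sets at 18 against 27 °C from -0.06 to 0.06, and calls there from 469 higher and 309 lower to 613 and 235. At 18 against 23 °C it moved them from 201 and 144 to 292 and 99.

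Counts of calls depended on the variance model. For 23 against 27 °C, 18 against 27 °C and 18 against 23 °C they were 284, 778 and 345. With a constant prior they were 1, 38 and 2 (2813, 3877 and 3063 at unadjusted p under 0.05), and with the methods' t-test, run without the study's presence filter and fold limit, 1, 0 and 3 (2989, 4133 and 3331 unadjusted). Testing only probe sets averaging 10 or more gave 524, 1322 and 798, fewer tests being adjusted for. With only the 6 arrays compared the counts were 159 at 23 against 27 °C and 160 at 18 against 23 °C. Leaving out 1 array gave 96 to 248, 387 to 857 and 109 to 265. These moved by over 1.5 times without any 27 or 23 °C array in the first comparison, without any 27 °C array or 18 °C replicate 1 or 2 in the second, and without 23 °C replicate 1 or 3 or any 18 °C array in the third. The cause was not tested.

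The 28 other pathway probe sets gave 2, 8 and 1 calls. With the constant prior and with the t-test there were 0 in each comparison. With the 6 arrays compared there were 1 at 23 against 27 °C and 0 at 18 against 23 °C, and with the mean filter 2 at 18 against 23 °C. Leaving out 1 array gave 1 to 2, 4 to 8 and 0 to 3, the 4 coming without 27 °C replicate 3 or 18 °C replicate 1, the 0 without 23 °C replicate 1 or 3 or any 18 °C array, and the 3 without 23 °C replicate 2. The replicate number as a block gave 230, 698 and 282 calls over all probe sets and 1, 7 and 0 over the pathway list. Same-numbered arrays correlated at -0.03 to 0.21 in their deviations, and differently numbered ones at -0.18 to 0.12. Between 23 and 18 °C alone same-numbered arrays gave 0.04 to 0.21 and the others -0.18 to 0.12. These ranges overlap and do not settle whether the numbers mark pairs. The main fit treats the 9 arrays as independent, although the same 3 plants were sampled at each temperature. The replicate numbers were not treated as pairs in it. Whether they mark the same plant is not given in the labels.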
